A study of Saccharomyces cerevisiae with 24 samples.

Results

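The genes described are 10 of the 6000 nuclear protein-coding genes of Saccharomyces cerevisiae that have a full 500 bp window upstream of the start codon. They were chosen by name for their part in iron uptake or in the response to iron supply: FET3, FTR1, FIT1, FIT2, FIT3, ARN1, ARN2, SIT1, ISU1 and TIS11. All 10 were found by symbol at their positions on build R64 (sacCer3). FAIRE (formaldehyde-assisted isolation of regulatory elements) enriches DNA that is poorly bound by protein, and was applied to giant colonies of BY4742, a haploid laboratory strain of mating type alpha that lacks working HIS3, LEU2, LYS2 and URA3. Colonies grew for 3 days on a rich medium with glycerol and ethanol as main carbon sources, a little glucose, added calcium chloride and uracil, and the pH dye bromocresol purple, and cells were lifted off with a spatula. The 4 groups differed in the biomass used, 4 mg, 20 mg, 100 mg or 500 mg, with 3 biological replicates each, and share strain, medium and age. Each of the 12 FAIRE libraries was set against its own unfixed input library by the authors' peak caller, which gave 12 peak lists from 24 samples. No group differed in iron supply or genotype, and the lists report open chromatin, not RNA, so they hold no measure of whether these genes were active.

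Yeast takes up iron by several routes. Reductases at the cell surface turn ferric into ferrous iron, which the oxidase Fet3 and the permease Ftr1 carry across the plasma membrane. Iron bound to siderophores, small chelators made by other microbes, is held in the cell wall by the Fit mannoproteins and imported by transporters of the Arn family. When iron is scarce, the transcription factors Aft1 and Aft2 activate these genes, and the RNA-binding protein Tis11, also called Cth2, speeds the decay of mRNAs for proteins that use much iron. Isu1 is the mitochondrial scaffold on which iron-sulfur clusters are built.

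The lists held 4180 to 6439 peaks. The shortest list, 100 mg replicate 1, recurs below among the libraries that lack a peak in the upstream window of a gene. Read totals were not analysed here, so the depth behind a missing peak is unknown. No library listed an upstream summit or a peak over the gene for LYS2, LEU2 or URA3, which are deleted in the strain. HIS3 had a peak over the gene in 12 libraries and an upstream summit in 1. Its allele in this strain is a partial deletion, and whether these peaks lie outside the missing part was not tested, so HIS3 does not serve as a check of the strain.

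A promoter is called marked in a library where at least 1 peak summit, the position of strongest signal in a peak, lay within 500 bp upstream of the start codon. FIT2 and ISU1 were marked in all 12 libraries, FET3 and FIT1 in 10 each, FTR1 in 9, TIS11 in 7, ARN1 in 6, ARN2 in 5, SIT1 in 1 and FIT3 in 0. The median was 8 libraries for the 10 genes and 0 for all 6000. The share marked in all 12 was 2 of 10, against 9.73% of all genes. Widening the window to 1000 bp added SIT1 and TIS11, so that 4 of 10 had a summit in every library, against 26.2% of all genes. A peak overlapped the coding sequence by at least 50 bp in all 12 libraries for 6 of 10, namely FET3, FTR1, FIT1, FIT2, FIT3 and ISU1, against 34.5% of all genes. These shares are descriptions of genes chosen by name, and no test was made of them.

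**Figure D1:**
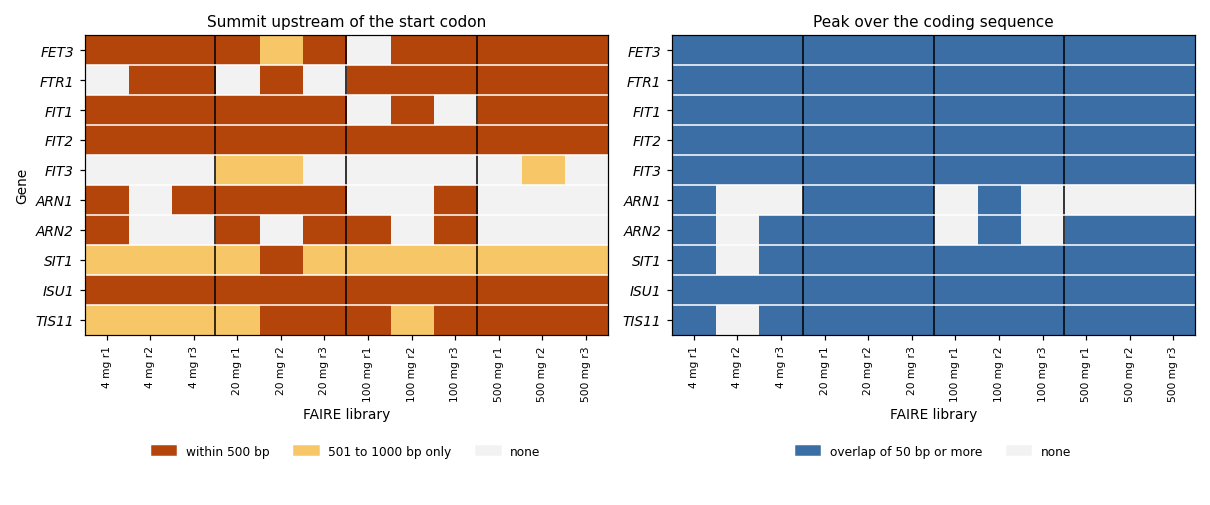
Presence of summits upstream (left) and of peaks over the coding sequence (right) for the 10 genes (rows) in the 12 FAIRE libraries (columns, r1 to r3 are replicates). FIT2 and ISU1 are filled in every column of both panels, FIT3 has no summit within 500 bp but a peak over the gene in every library, and ARN1 is empty in all 3 libraries at 500 mg.

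FET3 encodes the multicopper oxidase of high-affinity iron uptake (YMR058W, chromosome XIII, 388822 to 390732, plus strand). One broad peak reached the window of FET3 in 11 libraries. Its summit lay 305, 324 and 308 bp upstream of the start codon at 4 mg, at 306 and 333 bp in 20 mg replicates 1 and 3, at 332 and 355 bp in 100 mg replicates 2 and 3, and at 331, 350 and 317 bp at 500 mg. In 20 mg replicate 2 the same peak had its summit 949 bp upstream, and in 100 mg replicate 1 no peak reached the window. The peak was 1249 to 1356 bp wide and ran from 148 to 205 bp before the start codon out to 1453 to 1505 bp upstream. That span includes the divergent neighbour AAC1, a gene for a mitochondrial ADP/ATP carrier, whose coding sequence begins after a gap of 577 bp. All 10 summits also fell in the 500 bp window of AAC1, so the lists cannot assign this open stretch to either gene. Where the summit was in the window, the deposited fold enrichment over input ranged from 2.11 to 5.24 with a median of 3.56. Fold enrichment scales with each library, so a peak is placed by the percentage of peaks in its own list with an equal or lower value, which ran from 70.2% to 99.9% with a median of 92.6%. A separate peak lay over FET3 itself, and peaks covered 38.5% to 78.4% of the coding sequence.

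FTR1 encodes the permease that works in complex with Fet3 (YER145C, chromosome V, 460526 to 461740, minus strand). Its window was covered by a peak over all 500 bp in 11 libraries and over 473 bp in 100 mg replicate 1. Here the peak ran on into the gene, ending 262 to 877 bp inside the coding sequence, which it never did at FET3. The width varied most among the 10 genes, from 735 to 2948 bp, because the peak ended 473 to 546 bp upstream in 6 libraries and 2039 to 2124 bp upstream in the other 6, over the overlapping genes YER145C-A and LSM5 and into SCC4, a cohesin loader gene. The summit lay 231 to 352 bp upstream in 9 libraries. In 4 mg replicate 1 and 20 mg replicates 1 and 3 the summit of the long peak was instead 1514, 1564 and 1402 bp upstream, in SCC4 coding sequence, and FTR1 counts as unmarked there although its window was fully open. Its rank was also the most uneven, from 2.52% to 92.6% of the list at or below it over the 9 marked libraries.

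**Figure D2:**
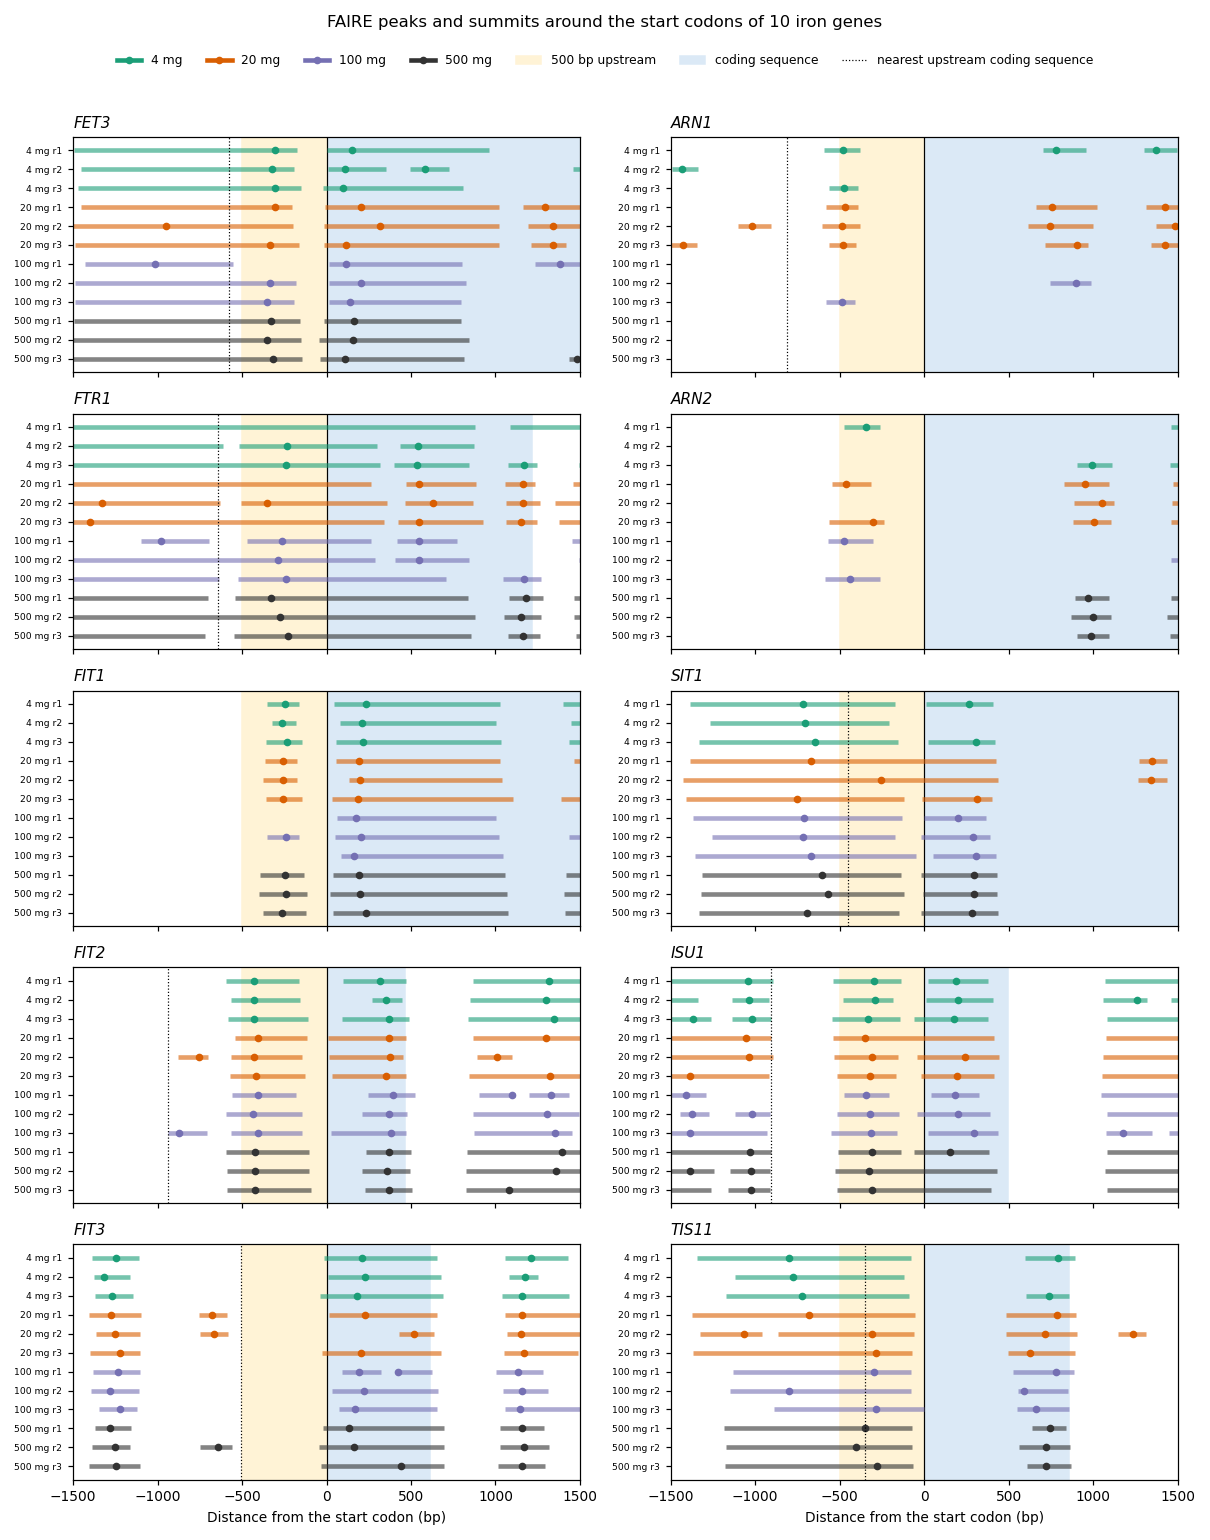
Peaks (horizontal bars) and their summits (dots) around the start codon of each gene, one row per library, coloured by biomass, with distance from the start codon in bp on the x axis (negative is upstream) cut off at 1500 bp on either side. The summits of FIT1, FIT2 and ISU1 keep nearly the same place in each library that has one, while the ISU1 peak runs on into the gene in 3 libraries. The upstream peaks of FET3, SIT1 and TIS11 extend over the neighbouring gene wherever present, that of FTR1 does so in 6 of 12 libraries, and the FIT3 peak covers the gene itself.

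The 3 FIT genes encode cell wall mannoproteins that retain siderophore-bound iron, and their upstream regions differed from one another. FIT2 (YOR382W, chromosome XV, 1059531 to 1059992, plus strand) carried a compact peak in every library. Its summit lay at 432, 428 and 428 bp upstream at 4 mg, 404, 430 and 418 bp at 20 mg, 408, 433 and 405 bp at 100 mg, and 423, 423 and 425 bp at 500 mg. The positions of the 4 biomasses overlapped, all between 404 and 433 bp. The peak was 382 to 502 bp wide, its median fold enrichment was 3.26, and a median of 93.7% of its list lay at or below it. A second peak covered 38.3% to 98.7% of the short FIT2 coding sequence.

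FIT3 (YOR383C, chromosome XV, 1060441 to 1061055, minus strand) is the next gene along, oriented toward FIT2. No library had a summit in its 500 bp window, and only 20 mg replicates 1 and 2 and 500 mg replicate 2 had one within 1000 bp, at 679, 666 and 642 bp. The divergent gene on its other side, the reductase gene FRE5, was 508 bp away and also unmarked in all 12. The 500 bp windows of FIT3 and FRE5 share 492 bp, so this is nearly the same observation and not a further one. What FIT3 had was a peak over the gene in every library, which covered 30.6% to 100% of the coding sequence and all of it in 6 libraries. This peak crossed the start codon in those 6 libraries, by 13 to 47 bp, and in the other 6 the window held no covered base.

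FIT1 (YDR534C, chromosome IV, 1503314 to 1504900, minus strand) had a narrow upstream peak, 145 to 280 bp wide, in 10 libraries. The summit lay at 247, 263 and 236 bp at 4 mg, 258, 260 and 257 bp at 20 mg, 240 bp in 100 mg replicate 2, and 247, 241 and 261 bp at 500 mg. In 100 mg replicates 1 and 3 no upstream peak was listed. The nearest gene upstream, the glycerol transporter gene STL1, is 3104 bp away, so this summit belongs to no other gene's window. It stood near the middle of its lists, with a median of 59.3% of peaks at or below it and a median fold enrichment of 2.74.

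The siderophore transporter genes had the weakest or most displaced upstream peaks. ARN1 (YHL040C, chromosome VIII, 19088 to 20971, minus strand) encodes a transporter of ferrichromes. It was marked in 4 mg replicates 1 and 3, in all 3 libraries at 20 mg, in 100 mg replicate 3 and in none at 500 mg. The summit, where present, lay 470 to 486 bp upstream, and each of the 6 was shared with the window of the divergent gene EFM1, which encodes a methyltransferase. The peak was 165 to 225 bp wide with a fold enrichment of 1.83 to 2.17, and 9.61% to 59.3% of its list lay at or below it. Peaks over the coding sequence were found in 5 libraries, 4 mg replicate 1, all of 20 mg and 100 mg replicate 2, and in none at 500 mg.

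ARN2 (YHL047C, chromosome VIII, 8351 to 10213, minus strand) encodes a transporter of triacetylfusarinine C. Its 5 marked libraries were 4 mg replicate 1, 20 mg replicates 1 and 3, and 100 mg replicates 1 and 3, with summits at 344, 465, 302, 473 and 441 bp upstream. Fold enrichments were 1.53 to 1.77. In 4 mg replicate 1 and both 20 mg libraries these were among the lowest peaks of their lists, with 4.71% to 6.87% at or below them, and in the 2 libraries at 100 mg 26.5% and 25.6% lay at or below them. Peaks over the coding sequence followed another pattern. They were present in 9 libraries, including all 3 at 20 mg and all 3 at 500 mg. At 500 mg, peaks covered 22.1% to 25.7% of the gene and the upstream window held none. ARN1 and ARN2 belong to one gene family, and the treatment of reads that map to more than one place is not stated.

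SIT1 (YEL065W, chromosome V, 27657 to 29543, plus strand) encodes the ferrioxamine B transporter. A broad upstream peak of 1065 to 1864 bp was present in all 12 libraries and covered 295 to 500 bp of the window. Its summit lay 571 to 753 bp upstream in 11 libraries, inside the coding sequence of the tandem neighbour HPA3, which ends 450 bp before SIT1. The 500 bp window of another gene, YEL067C, also held a summit in 11 libraries. That window overlaps the SIT1 window by 120 bp, and no summit fell in both. In 20 mg replicate 2 the summit was at 254 bp, between the genes, and this is the single library in which SIT1 counts as marked. The rank of the window peak was 42.0% to 98.0%, so SIT1 went unmarked because of the position of the summit and not for lack of a peak.

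ISU1 (YPL135W, chromosome XVI, 297553 to 298050, plus strand), the iron-sulfur scaffold gene, had the highest median rank of its upstream peak among the genes marked in more than 1 library. Its summit lay at 299, 290 and 331 bp at 4 mg, 352, 307 and 320 bp at 20 mg, 342, 320 and 312 bp at 100 mg, and 306, 327 and 311 bp at 500 mg. The median fold enrichment was 3.44, and the median share of its list at or below it was 97.7%. The lowest rank, 68.2%, was in 100 mg replicate 1. In 20 mg replicate 1 and 500 mg replicates 2 and 3 a single peak of 911 to 965 bp joined the upstream region to the gene, while in the other 9 libraries a separate peak lay over the coding sequence.

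TIS11 (YLR136C, chromosome XII, 415801 to 416658, minus strand) had one broad peak, 810 to 1318 bp wide, over its window in all 12 libraries, and 379 to 498 bp of the window were covered. The summit within that peak took different places. At 4 mg it lay 802, 774 and 724 bp upstream, at 20 mg 679, 306 and 286 bp, at 100 mg 297, 797 and 287 bp, and at 500 mg 351, 403 and 280 bp. All 3 positions at 4 mg were therefore farther out than all 3 at 500 mg, and 20 mg and 100 mg had summits of both kinds. The peak spans the divergent gene RKM5, a ribosomal lysine methyltransferase gene that starts beyond a gap of 347 bp. In 7 of 12 libraries the summit was in RKM5 coding sequence, 2 of those at 500 mg, and 5 of the 7 summits within 500 bp of TIS11 were also in the RKM5 window. Where TIS11 was marked, its median rank was 96.5%.

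**Figure D3:**
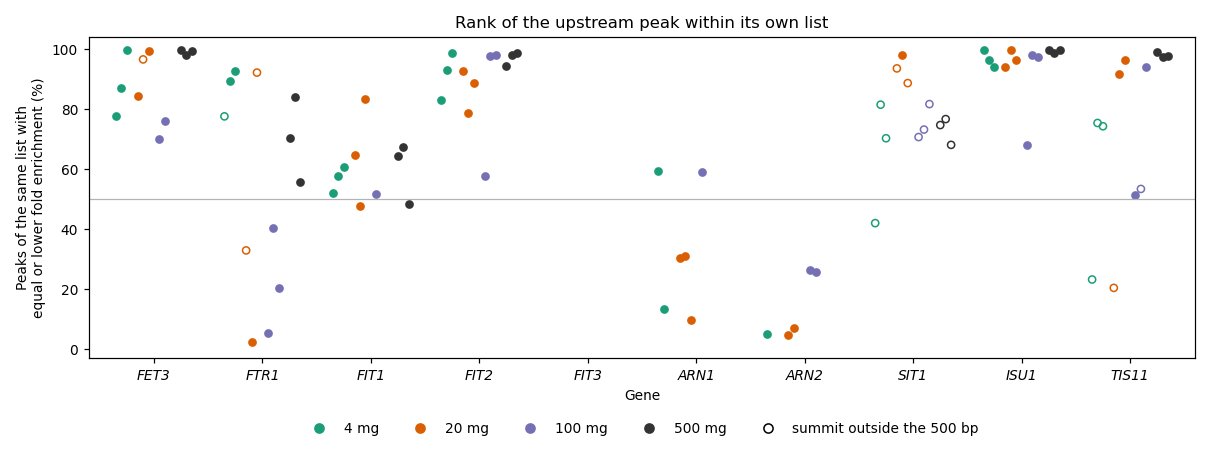
Rank of the peak with the largest overlap with the 500 bp window of each gene. The y axis is the percentage of peaks in the same list with equal or lower deposited fold enrichment. Points are libraries with at least 50 bp of the window covered, coloured by biomass, and open points have their summit outside the window. FIT3, with at most 47 bp covered, has no points. ISU1 lies between 68.2% and 99.9%, FIT2 between 57.8% and 98.8%, FIT1 lies between 47.6% and 83.3%, FTR1 is spread from 2.52% to 92.6%, and ARN2 lies between 4.71% and 26.5%.

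The question posed by the design is whether the biomass used alters what FAIRE recovers. Per library, 5.67 ± 0.577 of the 10 genes were marked in the 4 mg group, 6.67 ± 0.577 in the 20 mg group, 5.67 ± 1.15 in the 100 mg group and 6.00 ± 0 in the 500 mg group (SD, n = 3). Single libraries held 5 to 7, while 20.2% to 29.3% of all genes were marked per library. Peaks over the gene numbered 8.33 ± 2.08, 10.0 ± 0, 8.67 ± 1.15 and 9 ± 0 in the same order, while 44.7% to 63.4% of all genes had such a peak per library. The 20 mg lists were the longest, with 6204 to 6439 peaks, and held a peak over 62.8% to 63.4% of all genes, against 45.7% to 52.7% at 4 mg, so the higher count at 20 mg goes with a higher share of all genes.

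Marking in 3 of 3 libraries of one biomass and 0 of 3 of another occurred at 2 of the 10 genes in any of the 6 pairs of biomasses, against 4.32% of all genes. Only genes marked in 1 to 11 libraries can separate a pair. These were 7 of the 10, against 32.2% of all genes, and the share among such genes alone was not counted. ARN1 was marked in all 3 at 20 mg and none at 500 mg, which held for 2.05% of all genes. TIS11 was marked in all 3 at 500 mg and none at 4 mg, which held for 0.317% of all genes, but its window was covered by the same broad peak in all 6 of those libraries. A two-sided exact comparison of 3 with 3 libraries cannot give a p below 0.1, so these are counts without a test.

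A graded measure, the number of window bases covered by peaks, was compared over the 4 biomasses by an exact permutation test for each of 3683 genes with varying coverage. After Benjamini-Hochberg adjustment over all of them, 0 of the 10 genes and 0% of all genes passed 0.05. Unadjusted, 4 of the 10 had an exact p under 0.05, namely FIT1, SIT1, FIT2 and FET3, against 18.0% of all genes tested. Coverage itself differs between lists, with means over the tested genes of 167 ± 25.2, 187 ± 11.5, 165 ± 22.9 and 184 ± 6.21 bp at 4, 20, 100 and 500 mg (SD, n = 3), and its part in these values was not tested.

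FIT1 had 187, 145 and 218 bp covered at 4 mg, 190, 202 and 213 bp at 20 mg, 0, 190 and 0 bp at 100 mg, and 262, 280 and 258 bp at 500 mg. All 3 libraries at 500 mg were above the other 9. The biomasses took up 70.4% of the variance, with exact p = 0.0196 and an adjusted p of 0.232. FIT2 had 336, 344 and 389 bp at 4 mg, 384, 353 and 376 bp at 20 mg, 321, 353 and 354 bp at 100 mg, and 399, 396 and 411 bp at 500 mg. Here too the 500 mg libraries were the 3 highest, though the lowest of them, at 396 bp, was close to 4 mg replicate 3 at 389 bp (66.2% of variance, exact p = 0.0279, adjusted p = 0.25). Coverage at 500 mg above all other libraries was found at 9.48% of the genes tested.

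SIT1 had 330, 295 and 347 bp covered at 4 mg, 500, 500 and 396 bp at 20 mg, 372, 350 and 455 bp at 100 mg, and 383, 391 and 370 bp at 500 mg. The 3 libraries at 4 mg were the lowest of the 12, though the highest of them, at 347 bp, was close to 100 mg replicate 2 at 350 bp. The 4 biomasses took up 66.9% of the variance (exact p = 0.0216, adjusted p = 0.235). The share of all genes with their lowest coverage at 4 mg was not counted. FET3 had 336 ± 31.5 bp at 4 mg, 326 ± 25.1 bp at 20 mg, 209 ± 181 bp at 100 mg and 382 ± 20.2 bp at 500 mg (SD over 3 libraries), where the low mean at 100 mg comes from replicate 1 with 0 bp. Its exact p was 0.0378 and its adjusted p 0.26. For ARN1 the values were 77.0 ± 67.0, 110 ± 11.1, 30.7 ± 53.1 and 0 ± 0 bp, with 0 bp also in 4 mg replicate 2 and in 100 mg replicates 1 and 2 (exact p = 0.0649, adjusted p = 0.3). The other 5 genes had exact p-values of 0.0922 for FIT3, 0.118 for ISU1, 0.155 for TIS11, 0.427 for ARN2 and 1 for FTR1. The value for FTR1 was fixed in advance, since every library but 100 mg replicate 1 was at the ceiling of 500 bp. A single differing library gives the same result in any assignment, so FTR1 was in effect not tested.

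**Figure D4:**
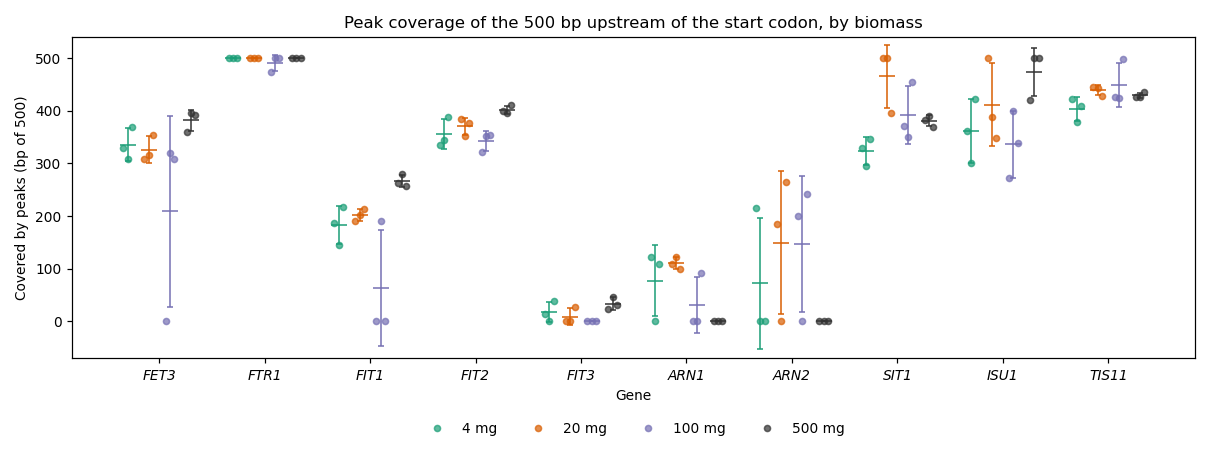
Bases of the 500 bp upstream window covered by peaks (y axis, bp) for each gene and library (points), with mean and SD of the 3 libraries per biomass (bars). FIT1 and FIT2 are highest at 500 mg in all 3 replicates, SIT1 is lowest at 4 mg, ARN1 and ARN2 are at 0 at 500 mg, and FTR1 is at the ceiling of 500 bp in 11 of 12 libraries.

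Position on the chromosome and distance to the neighbouring gene played no part in the choice. Of the 10, 6 lie within 35 kb of a chromosome end, against 7.55% of all genes: ARN2 at 8.35 kb, ARN1 at 19.1 kb, FIT1 at 27.0 kb, SIT1 at 27.7 kb, FIT3 at 30.2 kb and FIT2 at 31.3 kb. These are the cell wall and siderophore genes, and they include both genes marked in 0 or 1 libraries as well as FIT2, marked in all 12. The median distance to the next coding sequence upstream was 728 bp, against 448 bp over all genes, and it was at least 500 bp for 8 of 10, against 43.8%. FIT2 and ISU1 have 940 and 905 bp to YOR381W-A and GIP3. SIT1 and TIS11, whose summits mostly fell inside the neighbour, are the 2 with less than 500 bp. The gap was 508 bp at FIT3, 577 at FET3, 645 at FTR1, 811 at ARN1, 1709 at ARN2 and 3104 at FIT1. In this order, these genes were marked in 0, 10, 9, 6, 5 and 10 libraries. A link between gap and marking was not tested.

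Of 39 other genes of iron handling, listed by function, 6 were marked in all 12 libraries, against 9.73% of all genes, and 23 in none, against 58.0%. A summit lay within 1000 bp in all 12 libraries for 12 of the 39, against 26.2% of all genes. A peak over the gene was found in all 12 for 16 and in none for 9, against 34.5% and 28.4%. The count of unmarked genes is thus near the background. The marked ones were CCC2, which loads copper for Fet3 (median fold enrichment 3.60), COT1, a vacuolar metal transporter gene (3.26), MRS4, a mitochondrial iron carrier gene (3.00), HMX1, the haem oxygenase gene (2.92), ISA1, for iron-sulfur cluster assembly (2.91), and BOL2, a partner in the iron signal to Aft1 (2.84). None of the 6 reductase genes FRE1 to FRE6 was marked in any library. The FRE5 window shares 492 bp with that of FIT3, so it nearly repeats the result of that gene. Within 1000 bp, FRE1 and FRE5 had a summit in 11 libraries each, and FRE4 in 6. For FRE5 these summits lie across the 508 bp gap, in FIT3 coding sequence, and are those of the peak over FIT3. The copper transporter gene CTR1, the vacuolar iron importer gene CCC1, FET5, FRA1, FRE5, FTH1 and MRS3 had no summit within 500 bp in any library but a peak over the gene in all 12, as at FIT3. The share of all genes with both traits was not counted, so how common this pattern is remains unknown. Within 1000 bp, FRA1 still had none, and CTR1 had a summit in 2 libraries, CCC1 and FTH1 in 4 each, FET5 in 10, FRE5 in 11 and MRS3 in 12. Of the iron regulators, AFT1 had no summit within 500 bp but one within 1000 bp in all 12, and AFT2 had neither these nor a peak over the gene.

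ISU2, the near copy of ISU1, was marked in 4 libraries with summits 51 to 125 bp upstream, against 290 to 352 bp in 12 libraries for ISU1. Within 1000 bp, ISU2 had a summit in 12 libraries, and a peak lay over the gene in 12. ISU1 had the same counts on both measures. CTH1, the relative of TIS11, had no summit within 1000 bp and no peak over the gene in any library.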

How the data were processed

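DNA of FAIRE and input libraries was sequenced as single-end reads, and 1 narrowPeak list was made per pair, per the labels. Per the submitters' processing notes, the tools were MACS2 2.1.1.20160309, Bowtie2 2.2.8, FastQC 0.11.5, bedtools 2.26.0 and SAMtools 1.4, and the build was sacCer3 (R64). Their settings, the peak threshold and the handling of multi-mapping reads are not stated there. Peak starts, ends and summit offsets were deposited in bp, counted from 0, and were turned into 1-based positions. Fold enrichment, the authors' deposited ratio over input, was ranked only within a list. Of the deposited columns on a −log10 scale, p chose the strongest peaks and q filtered peaks, both in alternatives only. The deposited score was not used. The lowest −log10 q per list was 1.00 to 1.52.

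Genes were placed by RefSeq's R64 annotation table, with strands taken from the systematic names, which gave 6002 genes, 6000 with a full window. Gene models hold no untranslated regions. Summits in the 500 and 1000 bp upstream of the start codon, covered bases of the window, and peaks overlapping the coding sequence by 50 bp were counted with Python 3.11.15, numpy 2.4.6 and pandas 2.3.3. The exact permutation test used the share of variance of covered bp between biomasses over all 369600 assignments of 12 libraries to 4 groups of 3, with Benjamini-Hochberg adjustment over 3683 genes. It was tested on simulated data. With 1 list per library and 3 per biomass, p-values measure the spread between these libraries. The depth is unknown, so no counting interval is given. All 10 genes were named. Of 39 other iron genes, those marked in all 12 libraries were to be named, at most 5 by fold enrichment. Those marked in none but with a peak over the gene in all 12 were to be named too, at most 5 in order of name. Exceptions, named after their values were seen, were BOL2, FRE1, FRE4, AFT1, AFT2, ISU2 and CTH1. FTH1 and MRS3 were further exceptions, with which all genes of the second kind are named. The members, lists and tests were chosen with earlier results of these data known. Motifs and sequences were not analysed here.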

Additional observations from a re-analysis of the deposited data

How the results depend on the processing

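There were 90 alternatives to the counts over the 10 genes or over all genes. Of these, 80 stayed within 1.5 times the value reported and 10 did not. A reported 0 that remained 0 counts as staying. Of 50 alternatives to the number of libraries marked per gene, 36 stayed and 14 did not. ARN2 fell from 5 libraries to 0 at −log10 q of 5 or more. With the 3000 strongest peaks ARN2 fell to 0 and ARN1 from 6 to 2. With a peak overlap of 50 bp, SIT1 rose from 1 to 12 and TIS11 from 7 to 12. A window of 250 bp moved every gene but FIT3. The 2 genes marked in all 12 libraries became 5 when 9 of 12 libraries sufficed, 5 when a peak overlap of 50 bp replaced the summit, and 0 with a window of 250 bp. The 4 genes with a summit within 1000 bp became 7 when 9 of 12 libraries sufficed, and 2 when only noncoding sequence up to the next gene was counted. Peaks over the gene in all 12 libraries fell from 6 to 2 of the 10 when only the 3000 strongest peaks of each list were used. The 2 genes that separated a pair of biomasses became 1 with a window of 1000 bp, where only ARN1 was left. At −log10 q of 5 or more they became 3, with FTR1 added. In the coverage test, 663 genes and 4 of the 10 passed without adjustment. With 1 library left out, 0 to 5 genes passed with adjustment, the 5 without 4 mg replicate 1, and none of them was among the 10. Without adjustment, 0 to 6 of the 10 passed over 17 alternatives, the 0 when marked or unmarked was tested in place of covered bp, where 47 genes passed. The exact p of FIT1 ranged from 0.00039 to 0.182, that of FIT2 from 0.00649 to 0.859, that of SIT1 from 0.0173 to 1 and that of FET3 from 0.00688 to 1. With the replicate block, 0 genes and 0 of the 10 passed with adjustment, and 396 and 2 without. Libraries with the same replicate number did not deviate together: their deviations correlated at −0.49 to 0.21 over 18 pairs, and 1 of 12 libraries was most like one of its own number. The cause of these shifts was not tested. A missing peak cannot be told from low depth, since depth is unknown.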
